A study of Saccharomyces cerevisiae with 6 samples.

Results

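The genes described here encode assembly factors of the large (60S) ribosomal subunit of Saccharomyces cerevisiae. They were chosen by gene symbol from a list of 44 factors. All 44 were on the array, each as 2 spots, among 5539 named genes. The RNA came from a met4 mutant, a deletion according to the series title and called only a mutant in the sample labels, and from the wild type, both kept in 0.2 mM arsenite, As(III), for 1 hour. Each of 6 two-colour arrays carried the mutant RNA in Cy3 and the wild-type RNA in Cy5, and the 6 form 1 group of replicates. The strain background, the extent of the deletion and whether replicates were separate cultures are not stated by the labels, so p-values reflect only how far these arrays scatter, and part of that scatter may be technical. Both strains were in arsenite and no unexposed cells were among the arrays, so the ratio compares the strains within arsenite and holds no measure of the response to arsenite itself.

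Met4 is the activator of genes that take up and reduce sulfate and make methionine and cysteine. The large subunit is built mostly in the nucleolus, where the precursor rRNA is folded, modified and trimmed while ribosomal proteins are added. Assembly factors bind in waves. RNA helicases, methyltransferases and scaffold proteins act early, GTPases and a large AAA ATPase remodel the particle later, and a last set accompanies it through the nuclear pore and is released in the cytoplasm. In yeast the genes for these factors belong to the ribosome biogenesis regulon, whose transcripts are known to fall together under many stresses and to rise with growth rate.

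All values are log2 ratios of mutant over wild type, from which the median of all spots on the same array was subtracted. A value below 0 therefore means that the ratio of mutant over wild type was under the median ratio of that array. The numerator is not stated in the sources used here, and mutant over wild type was taken as likely from the order in the sample titles and from MET4. The dyes do not settle it, since a ratio of Cy5 over Cy3 would be wild type over mutant. The targeted gene MET4 (YNL103W) stood at -0.82, -0.94, -0.33, -0.58, -0.55 and -0.32 on arrays 1 to 6, below 0 on every array (mean -0.59 ± 0.25, SD, n = 6; limma, adjusted p = 0.0112). That is 1.51-fold, a small difference for a deleted gene, so MET4 bears only weakly on the direction of the ratio, and the deleted stretch and the probe are unknown. On the scale as deposited it was above 0 on array 3, at 0.59, where the median of all spots was 0.92, and its mean did not pass there (limma, adjusted p = 0.600). "Lower" and "higher" below carry this proviso: were the wild type the numerator, every sign would turn, and the 11 factors called lower below would be higher in the mutant, beside 5.69% of all genes higher and 9.41% lower. No array had the dyes swapped, so a bias between the dyes cannot be told apart from the effect of the mutation, whether for 1 gene or for a group of genes.

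The transcripts of the assembly factors were lower in the mutant for 11 of 44 genes and higher for none (limma over all 5539 genes, Benjamini-Hochberg adjusted p under 0.05). Of all genes tested, 5.69% were lower and 9.41% higher, and the 11 are 25.0% of the factors. The shifts were moderate: the 11 means ran from -0.75 for NOP15, which is 1.69-fold lower, to -0.45 for SPB4, which is 1.36-fold lower. The median of the 44 means was -0.37, beside 0.0053 for all genes, and 43 of the 44 means were below 0, beside 49.3% of all genes. DBP6 alone had a mean above 0. With centring by runs of consecutive spots it stood at -0.18, while SSF2 and REA1 were above 0 (0.08 and 0.05). As deposited 36 of the 44 means were below 0, where the median of all genes was 0.12. On all 6 arrays 15 factors (34.1%) were below 0 and none was above 0, beside 8.18% and 9.89% of all genes. At an unadjusted p under 0.05, 25 factors were lower (12.2% of all genes).

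The count of calls depended on the centring and on the arrays in the fit. In the values as deposited, whose array medians lay between -0.95 and 0.92, none of the 44 passed (smallest adjusted p = 0.324, with 2 lower at an unadjusted p under 0.05, 4.55% beside 2.80% of all genes), and the median of the factors was -0.26 against 0.12 for all genes. Without array 3 the count of lower factors was 3 (6.82%, beside 2.98% of all genes), and without array 5 it was 5 (11.4%, beside 3.45%). Without array 1, 2, 4 or 6 it was 9, 13, 12 or 8 (20.5%, 29.5%, 27.3% or 18.2%, beside 3.76%, 5.45%, 5.42% or 4.24% of all genes). Without both array 3 and array 5, a fit of 4 arrays chosen after the data were seen, it was 0, beside 1.93% of all genes, with 11 (25.0%) lower at an unadjusted p under 0.05, beside 7.80%. In that fit RPF2 stood at -0.65 (limma, adjusted p = 0.0533), NOP2 at -0.57, NOP4 at -0.53 and NOP15 at -0.37.

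**Figure D1:**
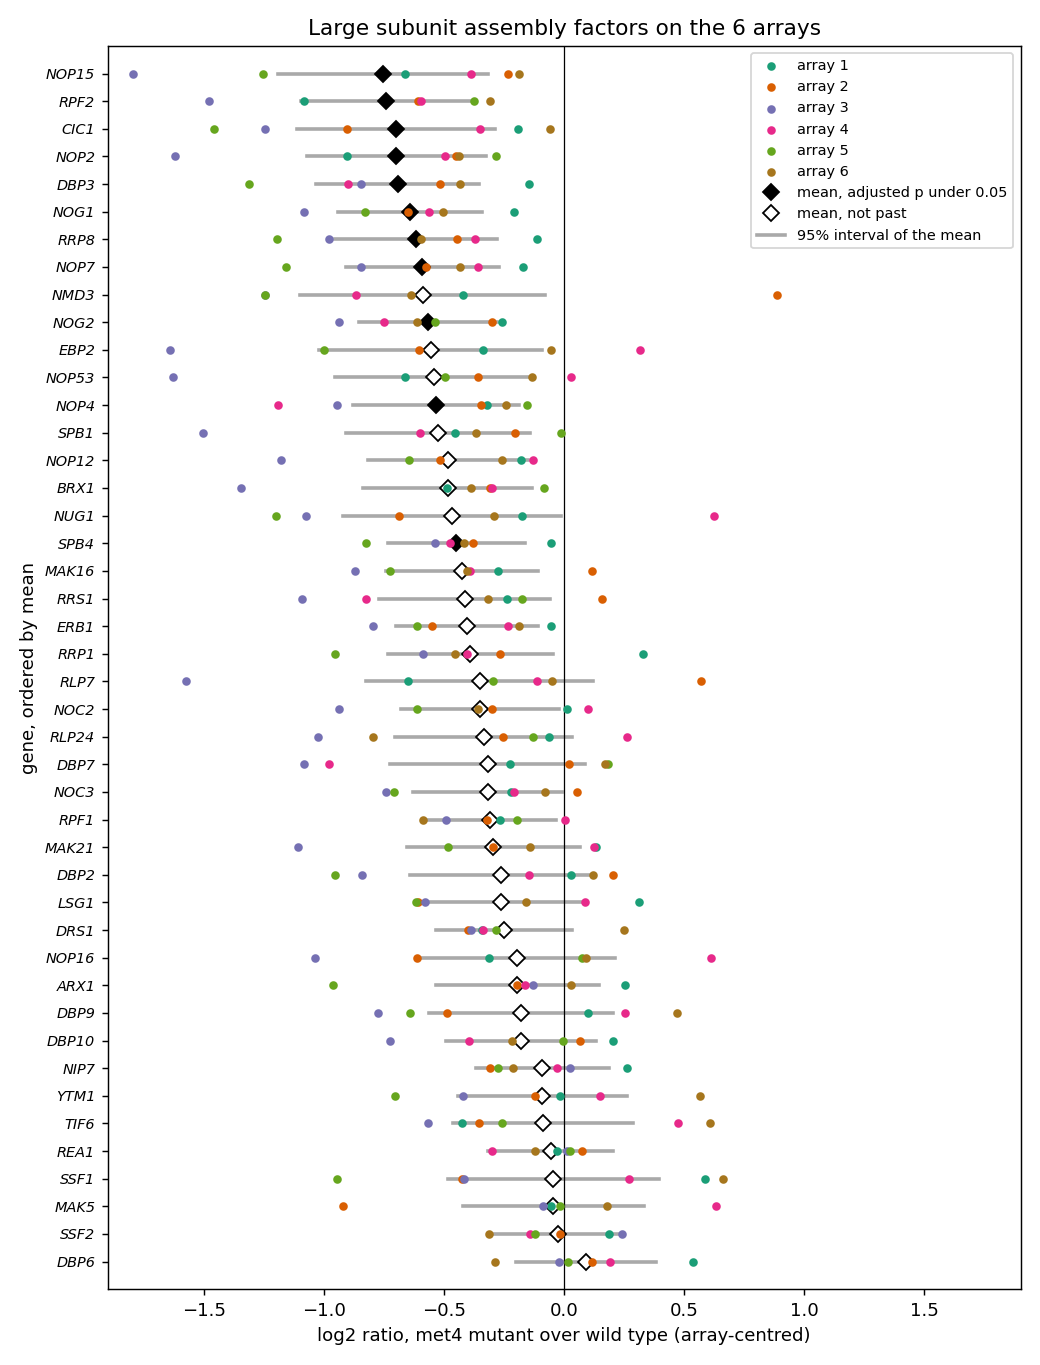
Log2 ratio of each of the 44 assembly factors (rows, ordered by mean) on the 6 arrays (coloured points), with the mean (diamond, filled where the adjusted p was under 0.05) and its 95% interval from limma (grey bar). The means run from -0.75 to 0.09, and the points of array 3 and array 5 lie furthest to the left for most genes.

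Among the early factors, the RNA methyltransferases had a median of -0.62 and means between -0.70 and -0.52, 2 of 3 lower, and all 3 below 0 on every array. NOP2 (YNL061W) encodes the enzyme that makes a 5-methylcytosine in the large rRNA and is needed for its maturation. Its log2 ratios were -0.90, -0.45, -1.62, -0.49, -0.28 and -0.44 on arrays 1 to 6, with a mean of -0.70 ± 0.50 (SD, n = 6; limma, adjusted p = 0.0176). Array 3 was the lowest and array 5 the nearest to 0. RRP8 (YDR083W), whose product methylates an adenine of the same rRNA, gave -0.11, -0.45, -0.98, -0.37, -1.20 and -0.59, a mean of -0.62 ± 0.40 (SD, n = 6; limma, adjusted p = 0.0194). Here array 5 was the lowest and array 1 the nearest to 0. SPB1, a ribose methyltransferase, had a mean of -0.52 ± 0.52 that did not pass (limma, adjusted p = 0.0654), with -1.51 on array 3 and -0.01 on array 5.

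DEAD-box RNA helicases, which unwind or rearrange RNA within the particle, were the largest role with 9 genes, of which 2 were lower and 7 did not pass. DBP3 (YGL078C), a helicase that helps the early cleavages of the precursor, stood at -0.15, -0.52, -0.85, -0.90, -1.31 and -0.43 on arrays 1 to 6. Its mean was -0.69 ± 0.41 (SD, n = 6; limma, adjusted p = 0.0118), lowest on array 5 and nearest to 0 on array 1. SPB4 (YFL002C) acts on nucleolar particles and was at -0.05, -0.38, -0.54, -0.48, -0.82 and -0.42. Its mean of -0.45 ± 0.25 was the smallest change among the 11 (limma, adjusted p = 0.0384), with 4 of the arrays between -0.54 and -0.38.

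The other 7 helicases had means between -0.32 for DBP7 and 0.09 for DBP6, and each was above 0 on at least 1 array. DBP6, an early helicase, stood at 0.54, 0.12, -0.02, 0.19, 0.02 and -0.29, with a 95% interval of the mean from -0.20 to 0.38. It was the highest of the 44 and stayed close to 0 on arrays 3 and 5, where most factors were lowest. MAK5 reached from -0.92 on array 2 to 0.63 on array 4, and DBP9 from -0.77 on array 3 to 0.47 on array 6. For all of these 7 helicases but DRS1, the SD between arrays exceeded the size of the mean.

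NOP4, NOP16, EBP2, BRX1 and NIP7 encode other proteins of the early nucleolar particle, and 1 of the 5 was lower. NOP4 (YPL043W), an RNA-binding protein, stood at -0.32, -0.35, -0.95, -1.19, -0.15 and -0.24 on arrays 1 to 6 (mean -0.53 ± 0.43, SD, n = 6; limma, adjusted p = 0.0407). It was lowest on arrays 4 and 3, and its call was kept in only 1 of the 6 fits that left out 1 array, the one without array 2. EBP2 and BRX1, whose products bind each other, had means of -0.56 ± 0.70 and -0.49 ± 0.44. Neither passed (limma, adjusted p = 0.102 and 0.0628). EBP2 was above 0 on array 4, at 0.31, and passed without that array (-0.73, limma, adjusted p = 0.0476). Of 18 alternative settings of the analysis, EBP2 passed only in this 1 and BRX1 in 3. NOP16 and NIP7 had means of -0.20 and -0.09.

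The Noc proteins, HEAT-repeat scaffolds that travel as MAK21 with NOC2 and NOC2 with NOC3, had closely spaced means of -0.30, -0.35 and -0.32, and none of the 3 passed. Their SDs between arrays were 0.46, 0.39 and 0.33. MAK21 and NOC2 differed by 0.05 ± 0.13 per array. NOC2 and NOC3 differed by -0.03 ± 0.28.

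The Nsa1 module and its neighbours had 0 of 5 genes past the threshold, with 3 at an unadjusted p under 0.05 (limma). MAK16, RRP1 and RPF1, which join the module, had means of -0.42, -0.39 and -0.31. SSF1 and SSF2 encode a pair of nearly identical proteins that are interchangeable for growth. SSF1 (YHR066W) stood at 0.58, -0.42, -0.42, 0.27, -0.95 and 0.66, and SSF2 (YDR312W) at 0.19, -0.02, 0.24, -0.14, -0.12 and -0.31 on arrays 1 to 6. Their means were -0.05 ± 0.65 and -0.03 ± 0.21 (limma, adjusted p = 0.914 and 0.917), and SSF1 had the wider spread between arrays. Without the sequences of the probes, cross-hybridisation between such paralogs was not tested.

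Factors at the second internal transcribed spacer (ITS2), the stretch of precursor RNA that is removed late, numbered 5, of which 2 were lower. NOP15 (YNL110C), an RNA-binding protein at the spacer, was the lowest of all 44. Its values were -0.66, -0.23, -1.79, -0.39, -1.25 and -0.19 on arrays 1 to 6 (mean -0.75 ± 0.64, SD, n = 6; limma, adjusted p = 0.0262). Arrays 3 and 5 were under -1 and the other 4 between -0.66 and -0.19.

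CIC1 (YHR052W), which sits beside it on the spacer, stood at -0.19, -0.90, -1.25, -0.35, -1.46 and -0.06 (mean -0.70 ± 0.58, SD, n = 6; limma, adjusted p = 0.0276). It was again lowest on arrays 5 and 3 and close to 0 on array 6. NOP12 had a mean of -0.49 ± 0.39 and was below 0 on all 6 arrays, but lay just outside the threshold (limma, adjusted p = 0.0509). NOP53, which brings the RNA exosome to the spacer, averaged -0.54 ± 0.59 (limma, adjusted p = 0.0741). RLP7, a relative of a ribosomal protein, averaged -0.35 ± 0.72 and ran from -1.57 on array 3 to 0.57 on array 2.

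The Nop7-Erb1-Ytm1 complex is needed for removal of the spacers and links assembly to cell growth. NOP7 (YGR103W) was lower, at -0.17, -0.58, -0.85, -0.36, -1.16 and -0.43 on arrays 1 to 6 (mean -0.59 ± 0.36, SD, n = 6; limma, adjusted p = 0.0187). ERB1 averaged -0.41 ± 0.29 and was below 0 on every array, without passing (limma, adjusted p = 0.0651), and YTM1 averaged -0.09 ± 0.44. NOP7 was below YTM1 on 6 of 6 arrays, with a difference per array of -0.50 ± 0.28 (SD, n = 6; exact two-sided sign-flip permutation test over arrays, p = 0.0312, the smallest that 6 arrays allow). That was 1 of 14 differences computed between partner or paralog genes, of which 3 had an unadjusted p under 0.05 and none passed after adjustment over the 14 (smallest adjusted p = 0.146). The pairs were chosen after their values were seen, and with so few arrays a single pair could not have passed alone. The sign-flip p-values therefore say nothing about whether partners differ.

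For the 5S ribonucleoprotein, which the Rpf2-Rrs1 dimer docks onto the particle, RPF2 (YKR081C) was lower. It stood at -1.08, -0.61, -1.48, -0.60, -0.37 and -0.31 on arrays 1 to 6, a mean of -0.74 ± 0.45 (SD, n = 6; limma, adjusted p = 0.0107). All 6 values were at or under -0.31, with arrays 3 and 1 the lowest. Its partner RRS1 averaged -0.42 ± 0.46, with 0.16 on array 2, and did not pass (limma, adjusted p = 0.112). It did pass without array 2 (-0.53, limma, adjusted p = 0.0464), but in only 2 of the 18 alternative settings. RPF2 and RRS1 differed by -0.33 ± 0.42 per array.

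**Figure D2:**
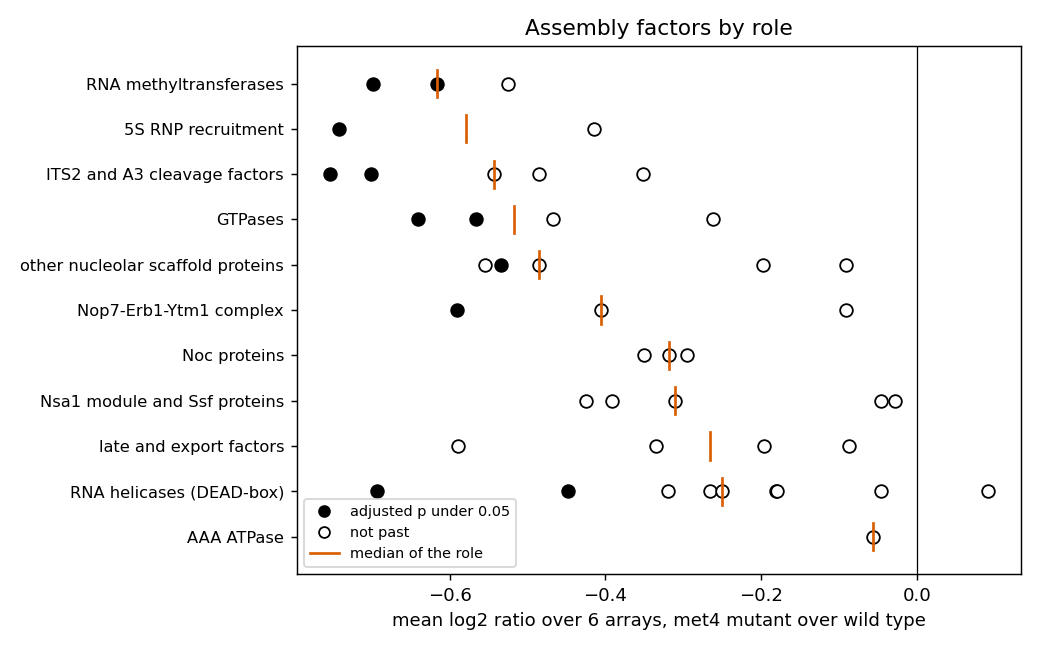
Mean log2 ratio over 6 arrays of each assembly factor (circle, filled where the adjusted p was under 0.05), grouped by role, with the median of each role as a vertical bar. The 11 lower genes fall into 7 of the 11 roles, and role medians run from -0.62 for the methyltransferases to -0.06 for the AAA ATPase.

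Nuclear GTPases act as the particle matures, and 2 of 4 GTPase genes were lower. NOG1 (YPL093W) stood at -0.21, -0.65, -1.09, -0.56, -0.83 and -0.50 on arrays 1 to 6. Its mean of -0.64 ± 0.30 had the smallest adjusted p of the 44 (limma, adjusted p = 0.00935). NOG2 (YNR053C) stood at -0.26, -0.30, -0.94, -0.75, -0.54 and -0.61 (mean -0.57 ± 0.26, SD, n = 6; limma, adjusted p = 0.0136).

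Both had narrower spreads between arrays than the typical factor, whose median SD was 0.43, beside 0.35 for all genes. NUG1 averaged -0.47 ± 0.67 and was at 0.63 on array 4 (limma, adjusted p = 0.156), and it passed without that array (-0.69, adjusted p = 0.0308). LSG1, the cytoplasmic GTPase that releases Nmd3, averaged -0.26 ± 0.40 (limma, adjusted p = 0.288). With centring by runs of consecutive spots it averaged -0.53 and passed (limma, adjusted p = 0.0425). NUG1 and LSG1 each passed in only 1 of the 18 alternative settings. REA1, the giant AAA ATPase that strips factors from the particle (also called MDN1), had a mean of -0.06 ± 0.14 with a 95% interval from -0.32 to 0.20. Its values, between -0.30 and 0.08, were the most tightly grouped of the 44.

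None of the 4 late and export factors passed. NMD3 (YHR170W), the adaptor that links the particle to the nuclear export receptor, had the lowest mean of any gene that did not pass. Its values were -0.42, 0.89, -1.25, -0.87, -1.25 and -0.64 on arrays 1 to 6 (mean -0.59 ± 0.79, SD, n = 6; limma, adjusted p = 0.113). Array 2 was far above 0 while the other 5 were below it. Without array 2 the mean was -0.88 and passed (limma, adjusted p = 0.00429). NMD3 passed in only 3 of the 18 alternative settings. RLP24, a placeholder for a ribosomal protein, averaged -0.33 ± 0.48, ARX1, an export factor, -0.20 ± 0.41, and TIF6, which keeps the subunits apart until release, -0.09 ± 0.50.

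At the threshold, SPB4 and NOP4 lay just inside (limma, adjusted p = 0.0384 and 0.0407) and NOP12 and BRX1 just outside (0.0509 and 0.0628). The genes on either side had means that differed by less than their SDs between arrays. The 2 spots of a factor on the same array differed by a median of 0.11, so the spread of 0.43 between arrays was larger than the gap between duplicate spots.

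The size of the shift varied between arrays. The factors' median was -0.18, -0.32, -0.90, -0.22, -0.57 and -0.23 on arrays 1 to 6, and 32, 34, 41, 29, 40 and 34 of the 44 were below 0. Of all genes, 48.3%, 52.2%, 49.0%, 46.9%, 49.2% and 47.6% were below 0 on these arrays. The lowest value of a gene fell on array 3 for 24 factors and on array 5 for 12, whereas 16.2% and 15.2% of all genes had their lowest value there. Medians of 2 related lists described below were also lowest on arrays 3 and 5. They were -0.63 and -0.40 for 45 further large subunit factors, and -0.77 and -0.45 for 60 small subunit factors. Over arrays 1, 2, 4 and 6 alone, the median of the factors' means was -0.21, beside 0.0037 for all genes, and 38 of 44 were below 0.

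**Figure D3:**
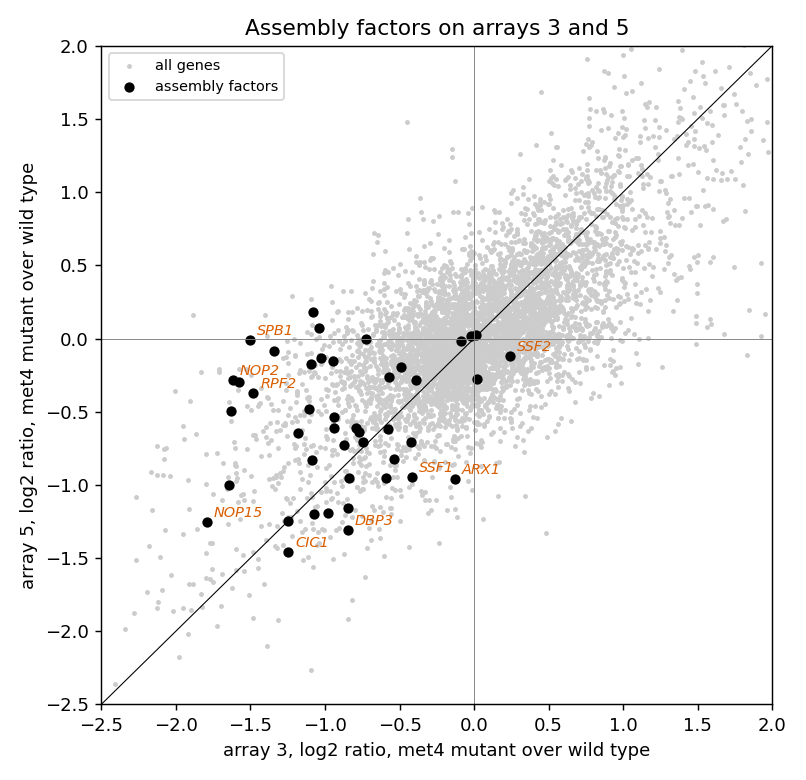
Log2 ratio on array 3 (x axis) and array 5 (y axis) of the 44 assembly factors (black) and of all genes (grey, cropped to the axes), with the line of equality. Of the 44 factors 41 were below 0 on array 3 and 40 on array 5, beside 49.0% and 49.2% of all genes. SPB1 and NOP2 were low on array 3 and near 0 on array 5, and ARX1 and SSF1 were lower on array 5.

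The order of the factors differed between arrays 3 and 5. SPB1 was 1.49 lower on array 3 than on array 5, NOP2 1.33 lower and RLP7 1.28 lower, while ARX1 was 0.83 and SSF1 0.53 higher on array 3. Across the 44 factors the correlation between arrays 3 and 5 was r = 0.21, and across all genes it was 0.76, the highest of the 15 pairs. The highest across the factors was r = 0.73, between arrays 1 and 3, and the median of the 15 pairs was 0.16 for the factors and 0.45 for all genes. These correlations are across genes, which are not independent replicates, and the factors span a narrower range of values than all genes do. They describe the arrays only.

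Other genes of ribosome synthesis give the setting, each list chosen by function (EFL1, DBP4 and NOP10 of these lists had no matching symbol). Of 45 further large subunit factors, 8 (17.8%) were lower and none higher, with a median of -0.29. The lowest were MRT4 (-0.87 ± 0.60), a placeholder for the stalk protein, and YVH1 (-0.73 ± 0.46), the phosphatase needed to release it (limma, adjusted p = 0.0109 and 0.0121). RRP14 and RRP15 followed at -0.70 ± 0.55 and -0.67 ± 0.32. Of 60 small subunit factors, 16 (26.7%) were lower and none higher, with a median of -0.36, led by the helicase gene DHR2 at -0.90 ± 0.59 and the snoRNP gene SNU13 at -0.82 ± 0.51. UTP9 and RRP9 stood at -0.75 ± 0.49 and -0.71 ± 0.43. Of 17 RNA polymerase I genes, RPA34 alone was lower (-0.71 ± 0.48), which is 5.88% of the list beside 5.69% of all genes, and the median was -0.19. Without array 3 the lower counts of these 3 lists were 3, 8 and 0, beside 2.98% of all genes lower. Without array 5 they were 3, 7 and 0, beside 3.45%.

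The factors help to assemble the large subunit ribosomal proteins. Of 78 genes for large subunit ribosomal proteins, 62 (79.5%) were lower and none higher, with a median of -0.88. RPL34B, RPL2B, RPL21A and RPL35B were the lowest, at -1.57 ± 0.45, -1.48 ± 0.53, -1.42 ± 0.68 and -1.42 ± 0.60, and many of these genes have a near-identical copy. Their median per array was -0.82, -1.44, -1.48, -0.25, -0.95 and -0.41 on arrays 1 to 6. On array 2 it was -1.44, where the assembly factors had -0.32, and on array 4 the medians were -0.25 and -0.22. No test was made of the difference between the lists.

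**Figure D4:**
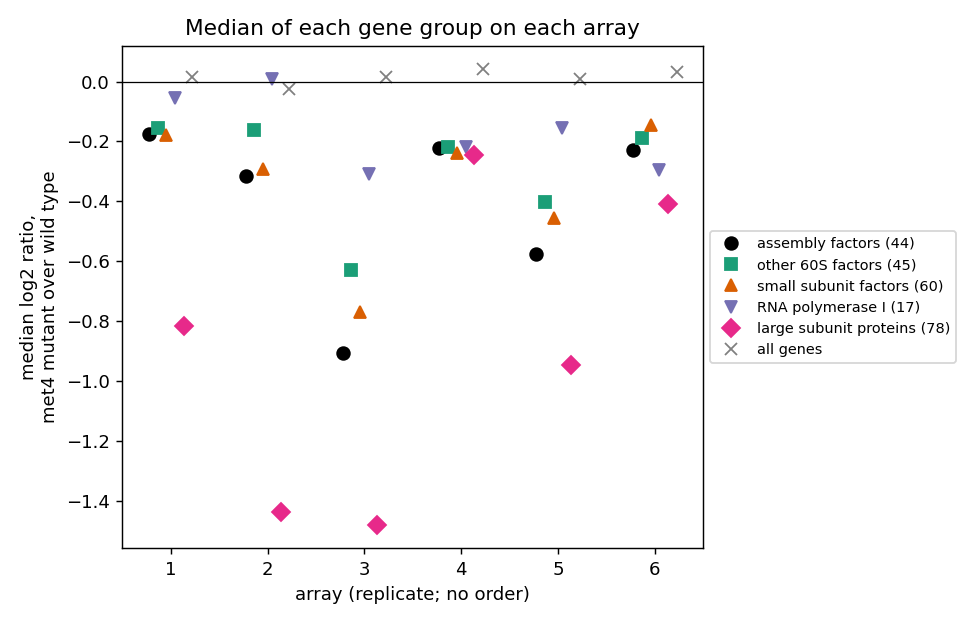
Median log2 ratio of 5 gene groups and of all genes (symbols) on each of the 6 arrays. The assembly factors (black circles) lie below all genes on every array, lowest on array 3 at -0.90, and the large subunit proteins (diamonds) are at -1.44 and -1.48 on arrays 2 and 3.

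Of 12 genes listed as regulators of ribosome synthesis, 2 (16.7%) were higher and none lower, beside 9.41% of all genes higher. Whichever array was left out, 1 was higher. TOR1, a kinase that promotes growth, stood at 0.69 ± 0.29 and SFP1, an activator of ribosome biogenesis genes, at 0.54 ± 0.47, both above 0 on every array (limma, adjusted p = 0.00650 and 0.0448). The SFP1 call was lost in every fit that left out 1 array, in the values as deposited, with array weights and with 1 spot per gene, and TOR1 was lost only in the values as deposited. TOD6, a repressor that binds the promoters of these genes, averaged -0.42 ± 0.36 (limma, adjusted p = 0.0717), and its relative DOT6 -0.12 ± 0.51. STB3, another repressor, averaged 0.13 ± 0.26. The other regulators, none of which passed, were RAP1 (-0.30), TOR2 (-0.10), CRF1 (0.07), FHL1 (0.10), SCH9 (0.10), MRS6 (0.17) and IFH1 (0.21).

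**Figure D5:**
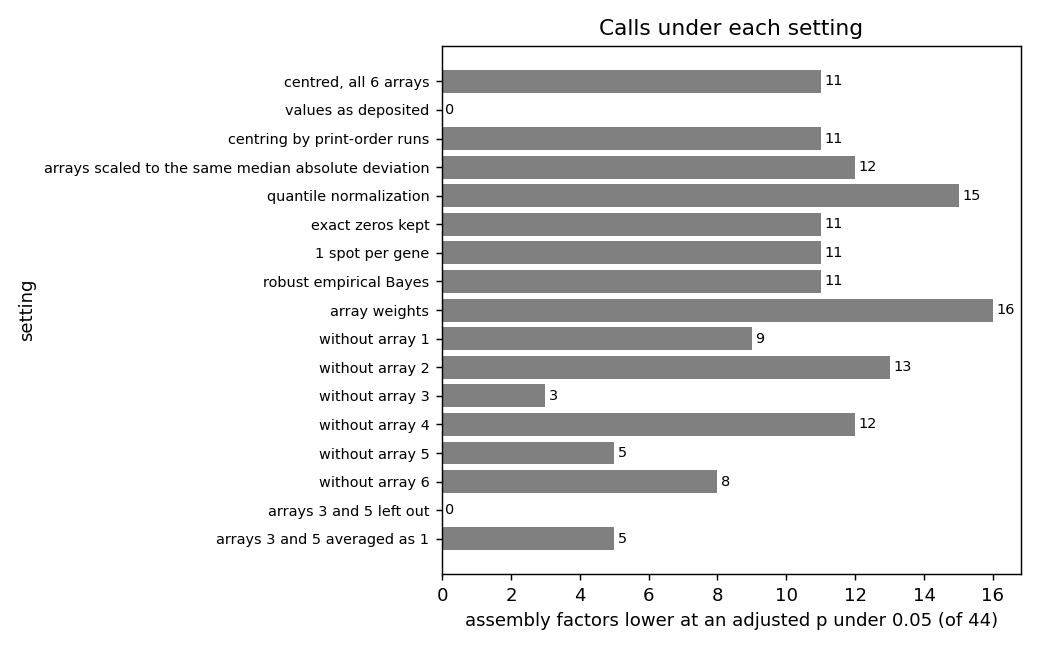
Number of the 44 assembly factors that were lower at an adjusted p under 0.05 (bars) under each setting (rows). The count is 11 for centred values on all 6 arrays, 0 as deposited, 3 without array 3, 5 without array 5 and 0 with both left out.

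Of the 11 lower genes, DBP3, RPF2 and NOG1 kept their calls without any 1 array. NOG2 lost its call only without array 3 among these fits, and NOP2 without array 1 or 3. NOP15 and NOP7 lost theirs without array 3 or 5, RRP8 without array 3, 5 or 6, CIC1 without array 2, 3 or 5, and SPB4 without array 3, 4, 5 or 6. NOG1, NOP7 and NOP4 also missed the threshold with centring by runs of consecutive spots (NOG1, limma, adjusted p = 0.0785), while RRS1 (-0.47, adjusted p = 0.0430), NMD3 (-0.89, 0.0215) and LSG1 passed there, so that this count of 11 shares 8 genes with the 11 above.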

How the data were processed

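Two-colour arrays of total RNA were analysed from the table of 13056 spots. Per the labels the channels are Cy3 (mutant) and Cy5 (wild type), and the deposited numbers are log ratios, taken as log2 from their range. Neither the labels nor the table state the authors' scanning, background correction, normalization and software, or the log base and numerator. If the base were natural, each printed unit would be 1.44 log2 units, with the same tests. No scanner intensities were used, so it is unknown which spots were near background, and the 6 arrays set the precision.

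Each array was centred on its median over all spots, the 134 exact zeros (0 on spots of the factors) were set to missing, and the spots of a gene were averaged. Of 13056 spots 11138 carry 1 gene symbol in the platform annotation, none several, and 1918 none; all 44 factors matched the R64 gene table (used for locus tags and neighbours). A value on at least 4 arrays was required, which removed 0 of 5539 genes, and 0 columns of other samples were present. Each gene was fitted with an intercept alone (limma 3.58.1, lmFit and eBayes; R 4.3.3), with Benjamini-Hochberg adjustment over all genes. Gene pairs were compared by exact sign-flip permutation over arrays. Tested on simulated data for this comparison with 5539 genes, the procedure recovered 35.0% of changes of 0.5 and 85.0% of changes of 1 (log2), with 7 false calls among 127. The simulated noise was normal, independent between genes and arrays, and without dye bias, so these rates may not hold for the real arrays. The factors and lists were chosen with earlier results of these data known. Values on every array are given for factors past the threshold, for the paralogs SSF1 and SSF2, and for the lowest and highest that did not pass; up to 4 genes past the threshold are named per other list, besides the regulators. The partner pairs, the regulators that did not pass, the gene neighbours and the other members named were chosen after their values were seen. Promoter sequences were not analysed here. Alternatives were the values as deposited, other scalings, filters, variance models and left-out arrays. Figures were drawn with matplotlib 3.10.9.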

Additional observations from a re-analysis of the deposited data

Results flagged for a closer look

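For 3 of 45 sets of 6 array values examined (the 44 factors and their median), 1 array stood far from the other 5 relative to the whole range. Chance flags about 1 in 20 such sets. DRS1, a DEAD-box helicase gene, was at 0.25 on array 6, while the other arrays lay between -0.40 and -0.28. Without array 6 its mean was -0.35 (limma, adjusted p = 0.117). Its 2 spots differed by up to 0.81 on 1 array, the widest gap of any factor. BRX1 was at -1.34 on array 3, with the others between -0.49 and -0.08. ARX1 was at -0.96 on array 5, with the others between -0.20 and 0.25.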

How the results depend on the processing

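The median of the factors kept its sign under all 18 alternatives (from -0.28 to -0.44 when 1 array was left out), and no factor passed as higher under any of them. Over the factors and alternatives, 716 results kept their side of the threshold, 55 lost a call, 21 gained one and 0 reversed with a call. The 716 are no measure of robustness, as part of them was fixed in advance. The filters on the number of arrays with a value gave the reported fit again, and keeping exact zeros touched no spot of a factor. The 716 also include factors without a call in the reported fit that stayed without one. In the values as deposited, 246 genes passed, with 0 factors, 0 other large subunit factors, 0 small subunit factors, 0 RNA polymerase I genes, 0 higher regulators and 21 large subunit protein genes lower, and MET4 at -0.47 did not pass. Of all genes, 1.07% were lower in the values as deposited. That setting differs from the reported one by the centring alone. RNA polymerase I genes numbered 3 lower with centring by 48 runs of consecutive spots, 2 with quantile normalization and 3 with array weights. Of all genes, 6.21%, 6.41% and 7.94% were lower in these fits. Higher regulators numbered 1 with 1 spot per gene and 1 with array weights, where 1 regulator was also lower. Among all 5539 genes, 487 and 650 were higher in these fits.

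Leaving out 1 array gave between 456 and 965 genes (456 without array 3, 518 without array 5, 528 without array 6). Of all genes, 2.98% to 5.45% were lower in these fits, and 291 to 663 genes were higher. Lower were 3 to 13 factors, 3 to 11 other large subunit factors, 7 to 17 small subunit factors, 0 to 3 polymerase genes and 43 to 62 large subunit protein genes. Among the regulators 1 was higher and 0 to 1 lower, and 0 to 1 other large subunit factor was higher. MET4 lay between -0.64 and -0.52. Chosen after seeing the data, leaving out arrays 3 and 5 together gave 306 genes, 0 factors, 0 other large subunit factors lower and 1 higher, 1 small subunit factor, 0 polymerase genes and 27 large subunit protein genes. That fit has 4 arrays, with 1.93% of all genes lower, and the cause was not tested. Averaging arrays 3 and 5 as 1 gave 544 genes, 5 factors, 5 other large subunit factors and 9 small subunit factors. The 5 factors are 11.4% of the 44, and 3.70% of all genes were lower in that fit. Each array holds both strains, so each log ratio is a paired difference within 1 array, and the fit tested its mean against 0. Without scanner signals, the share of factors near background is unknown.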

Other observations

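By the R64 gene order, 5 factors stand next to another gene of ribosome synthesis in the lists used. NMD3 neighbours DBP8, a small subunit helicase gene that was lower (-0.59 and -0.64), RPF1 neighbours GAR1 (-0.31 and -0.37), SSF1 neighbours RRP3 (-0.05 and -0.02), DBP2 neighbours RPC19 (-0.27 and -0.21) and RRS1 neighbours UAF30 (-0.42 and -0.19).

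NOP15, the lowest factor, and DBP2 lie on the same chromosome as the deleted MET4 in the R64 gene table, 5 and 7 protein-coding genes away. The genes next to MET4, LEU4 and POL1, stood at 0.30 and 0.16, and the 3 genes from NOP15 towards LEU4 (YNL108C, YAF9 and INP52) at -0.10, -0.02 and 0.13, none of which passed (limma, adjusted p of 0.257 to 0.941). On the other side of MET4, RPS7B, 8 protein-coding genes away, was lower at -0.70 (limma, adjusted p = 0.0216). MIC27, 3 genes away on that side, stood at 0.43 and did not pass (limma, adjusted p = 0.163). An effect of the deletion on nearby genes was not tested.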
